A study of Mus musculus with 62 samples.

Results

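The chromatin of 10 genes of the B lineage was followed in haematopoietic stem and progenitor cells (HSPCs) after loss of the H3.3 chaperone Daxx, alone or together with the transcription factor Pu.1. The genes are Ebf1, Pax5, Foxo1, Il7r, Rag1, Rag2, Cd79a, Cd79b, Vpreb1 and Igll1, and they are 10 of the 21924 protein-coding genes of the GENCODE M21 annotation. Every listed differential site that overlapped one of the gene bodies or the 20 kb on either side of it was taken, which gave 1116 of the 1743368 sites in 14 tables of comparisons. Rag1 and Rag2 are neighbours and share sites, as do Vpreb1 and Igll1, so the genes form 8 loci. Ebf1 held 388 of the sites, Pax5 301, Foxo1 179, Cd79a 56, Cd79b 55, the Rag1 and Rag2 locus 52, the Vpreb1 and Igll1 locus 48, and Il7r 37. Counts over all 10 genes therefore mostly reflect the 3 long genes.

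The cells came from the bone marrow of C57BL/6 mice and were lineage-negative and positive for c-Kit, enriched with magnetic beads, and chromatin was profiled by CUT&Tag. In this assay an antibody tethers the Tn5 transposase to a protein or histone mark, and the DNA around it is cut, tagged and sequenced. Wild-type (WT) mice were Daxx +/+ Cre +/-, Daxx-KO mice were Daxx F/F Cre +/-, and double knock-out (DKO) mice were Daxx F/F and also Pu.1 F/F, with Cre +/-, so that all groups carried Cre. The tables hold 54 of the 62 libraries, with 2 Daxx-KO and 2 WT libraries per antibody at 3 and 24 weeks post induction (w.p.i.) and 3 libraries per genotype at 8 w.p.i. The labels do not name the Cre driver, nor the age or sex of the mice, and the study used both an interferon-inducible and a tamoxifen-inducible Cre. In its methods the DKO mice carried the interferon-inducible Cre, induced by injected polyinosinic:polycytidylic acid. For the Daxx-KO and WT mice of these libraries the driver is not stated in the text used here. The floxed alleles were removed in more than the B lineage, and the bead-enriched cells are a mixture of stem cells and committed progenitors. In such bulk cells, fewer cells of a type and less signal per cell cannot be told apart.

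Commitment to the B lineage runs from the interleukin-7 receptor, of which Il7r encodes the alpha chain, to Foxo1 and Ebf1, which switch on the B-cell programme, and to Pax5, which fixes it. Rag1 and Rag2 encode the recombinase that rearranges the antigen-receptor genes. The products of Vpreb1 and Igll1 form the surrogate light chain of the pre-B-cell receptor, and Cd79a and Cd79b encode its signalling chains. In stem and progenitor cells that have not chosen this fate, the regulators among these genes typically carry H3K27me3, the mark of Polycomb repression. H3K27ac marks active promoters and enhancers, H3K9me3 marks heterochromatin and repeats, and the histone variant H3.3 is placed in heterochromatin and repeats by Daxx. Pu.1, encoded by Spi1, is an ETS factor that promotes myeloid fates at high levels and is also needed for early B cells.

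The sequences below are those to which the results return. The first 3 are the 250 bases before the start of transcription of Il7r, Rag2 and Igll1, shown because listed H3K27ac sites overlap those of Il7r and Rag2 at both times, and that of Igll1 is overlapped by listed sites of 5 comparisons. They were taken from RefSeq on GRCm38.p6 and lie at chr15:9529877-9530126 on the minus strand, chr2:101624462-101624711 on the plus strand and chr16:16863986-16864235 on the minus strand.
Il7r promoter: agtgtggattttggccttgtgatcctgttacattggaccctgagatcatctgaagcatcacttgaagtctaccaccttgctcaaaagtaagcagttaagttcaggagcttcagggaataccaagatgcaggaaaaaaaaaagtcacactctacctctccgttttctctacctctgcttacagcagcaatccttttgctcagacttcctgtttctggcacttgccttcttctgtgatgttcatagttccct
Rag2 promoter: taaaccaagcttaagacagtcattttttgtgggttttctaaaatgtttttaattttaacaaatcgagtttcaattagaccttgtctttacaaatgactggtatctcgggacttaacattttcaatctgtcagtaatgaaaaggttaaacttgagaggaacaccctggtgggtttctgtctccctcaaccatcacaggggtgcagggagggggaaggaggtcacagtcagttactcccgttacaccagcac
Igll1 promoter: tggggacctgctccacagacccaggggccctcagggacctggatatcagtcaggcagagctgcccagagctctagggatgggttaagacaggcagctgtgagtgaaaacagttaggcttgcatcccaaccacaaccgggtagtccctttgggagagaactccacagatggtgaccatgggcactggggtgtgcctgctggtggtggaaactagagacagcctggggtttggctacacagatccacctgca

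The next 3 are the middle 300 bases of Pu.1 sites that contain the Pu.1 word GAGGAAGT, which is in capitals and reads ACTTCCTC where it lies on the other strand. They are the plus strand of mm10 at chr11:44669101-44669400 in an intron of Ebf1, at chr4:44699501-44699800 in an intron of Pax5, and at chr16:16866176-16866475 between Igll1 and Vpreb1. The word was found in the middle 300 bases of 5 of the 101 Pu.1 sites at these genes at 3 w.p.i. (4.95%) against 2.07% of all listed Pu.1 sites, and in 5 of 157 (3.18%) against 2.1% at 24 w.p.i. It was in 802 of 32851 RefSeq promoters of 250 bases (2.44%) and in none of the 10 promoters that matched 9 of the genes. The promoter of Cd79b was not analysed here. A match is a run of letters in a window and not a measured binding site.
Ebf1 intron: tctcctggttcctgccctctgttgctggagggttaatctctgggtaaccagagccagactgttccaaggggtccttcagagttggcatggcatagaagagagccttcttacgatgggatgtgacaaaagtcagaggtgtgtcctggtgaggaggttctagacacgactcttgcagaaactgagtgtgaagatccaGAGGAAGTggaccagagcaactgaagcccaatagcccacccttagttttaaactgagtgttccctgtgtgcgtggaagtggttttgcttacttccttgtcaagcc
Pax5 intron: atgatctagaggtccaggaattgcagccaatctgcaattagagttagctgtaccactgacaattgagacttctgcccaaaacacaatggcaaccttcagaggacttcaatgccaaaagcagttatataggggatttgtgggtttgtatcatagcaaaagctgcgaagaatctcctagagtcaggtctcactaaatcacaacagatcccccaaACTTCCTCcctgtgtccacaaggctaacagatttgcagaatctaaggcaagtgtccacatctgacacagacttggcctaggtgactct
Igll1 and Vpreb1: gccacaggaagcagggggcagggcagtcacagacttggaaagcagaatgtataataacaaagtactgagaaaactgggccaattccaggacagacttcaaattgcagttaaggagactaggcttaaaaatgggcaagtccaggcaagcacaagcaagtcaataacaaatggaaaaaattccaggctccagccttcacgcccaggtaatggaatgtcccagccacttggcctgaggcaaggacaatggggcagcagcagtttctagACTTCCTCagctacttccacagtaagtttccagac

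Each site has a value for every library, the normalized count, in which the reads at the site are scaled by 1 constant per library. The tables list only sites that had passed the authors' comparison of the groups, so nothing is known of regions that were not listed, and a listed site differs between groups by construction. No test was therefore run on the sites. Groups are described by the value in each library and by whether the libraries of the groups overlap, and counts of sites are read against all listed sites of the same table. Ratios compare the group means and are on the log2 scale. Intervals of shares are Wilson 95% intervals and cover counting error only. At a single site, exact permutation of the libraries gives no p below 0.333 with 2 against 2 libraries and none below 0.100 with 3 against 3.

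Libraries differed in depth. The mean number of reads per 600-bp window was 3.06 in WT replicate 2 of H3.3 at 3 w.p.i. against 9.43 to 22.88 in the other 3 libraries, and 2.75 in WT replicate 2 of Pu.1 against 11.35 to 33.78. For H3K9me3 at 8 w.p.i. DKO replicate 2 had a mean of 0.2 to 0.21 reads, the lowest of all. At Daxx itself (ENSMUSG00000002307.16) H3K27ac sites were listed in both directions, and the floxed exons were not located among them. At chr17:33909801-33913400, inside the gene, H3K27ac at 24 w.p.i. was 113 and 93.7 in the Daxx-KO libraries against 858 and 368 in WT. At chr17:33909601-33911450 it was 24.2 and 13.6 against 65.5 and 105 at 3 w.p.i. The other listed H3K27ac sites of the gene were higher in Daxx-KO. At 24 w.p.i. chr17:33908401-33909500 had 1570 and 1036 against 775 and 581, and chr17:33914651-33916950 had 1875 and 1617 against 712 and 914. At 3 w.p.i. chr17:33915201-33915850 had 33.91 and 56.07 against 2.15 and 15.45. The 6 HSPC marker genes used (Kit, Cd34, Gata2, Meis1, Hlf and Ly6a) all held listed H3K27ac sites, with summed normalized counts of 3719 to 4799.8 in Daxx-KO and 2021 to 2046 in WT at 3 w.p.i.

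Over the 10 genes, the share of listed sites that were higher in the knock-out was close to that of the whole table in some comparisons and far from it in others. At 3 w.p.i. H3.3 was higher in Daxx-KO at 47 of 84 sites, 56.0% (interval 45.3 to 66.1), against 59.4% of all listed sites. Pu.1 was higher at 58 of 101 sites, 57.4% (47.7 to 66.6), against 56.0%. H3K27ac was higher at 40 of 61 sites, 65.6% (53 to 76.3), against 41.5%, the only comparison at that time whose interval lay clear of the share of the whole table on the high side. H3K9me3 was higher at 4 of 9 sites, 44.4% (18.9 to 73.3), against 78.9%.

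At 8 w.p.i. few H3K9me3 sites were listed near these genes. There were 3 in Daxx-KO against WT, of which 1 was higher (33.3% against 65.2% of all listed sites), 2 in DKO against WT, of which 1 was higher (50.0% against 81.4%), and 1 in DKO against Daxx-KO, which was higher (100% against 73.4%). H3K27me3 was listed far more often. It was higher in DKO than in WT at 43 of 119 sites, 36.1% (28.1 to 45.1), against 56.1%, and higher in DKO than in Daxx-KO at 35 of 115 sites, 30.4% (22.8 to 39.4), against 65.3%. The libraries of the groups did not overlap at 107 of the 119 and at 99 of the 115 sites, where 89.6% and 84.3% of all listed sites did not. The direction of both shares rests on Ebf1, which holds 81 of the 119 sites (8 higher) and 72 of the 115 (6 higher). The median of the shares of the single genes was 87.5% in DKO against WT and 50% in DKO against Daxx-KO. These comparisons share the DKO libraries, so they are set side by side and are not independent of each other.

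At 24 w.p.i. H3.3 was higher in Daxx-KO at 62 of 157 sites, 39.5% (32.2 to 47.3), against 52.6% of all listed sites. Pu.1 was higher at 71 of 157, 45.2% (37.6 to 53), against 48.2%, and H3K27ac at 50 of 110, 45.5% (36.5 to 54.8), against 42.5%. H3K9me3 was higher at 28 of 48, 58.3% (44.3 to 71.2), against 48.1%, and H3K27me3 at 81 of 149, 54.4% (46.4 to 62.2), against 41.2%. For H3K27me3 the median of the shares of the single genes was 0%, since the genes with few sites were lower and the long genes hold most sites. The loci differed from one another within nearly every comparison, and the account below is by gene.

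**Figure D1:**
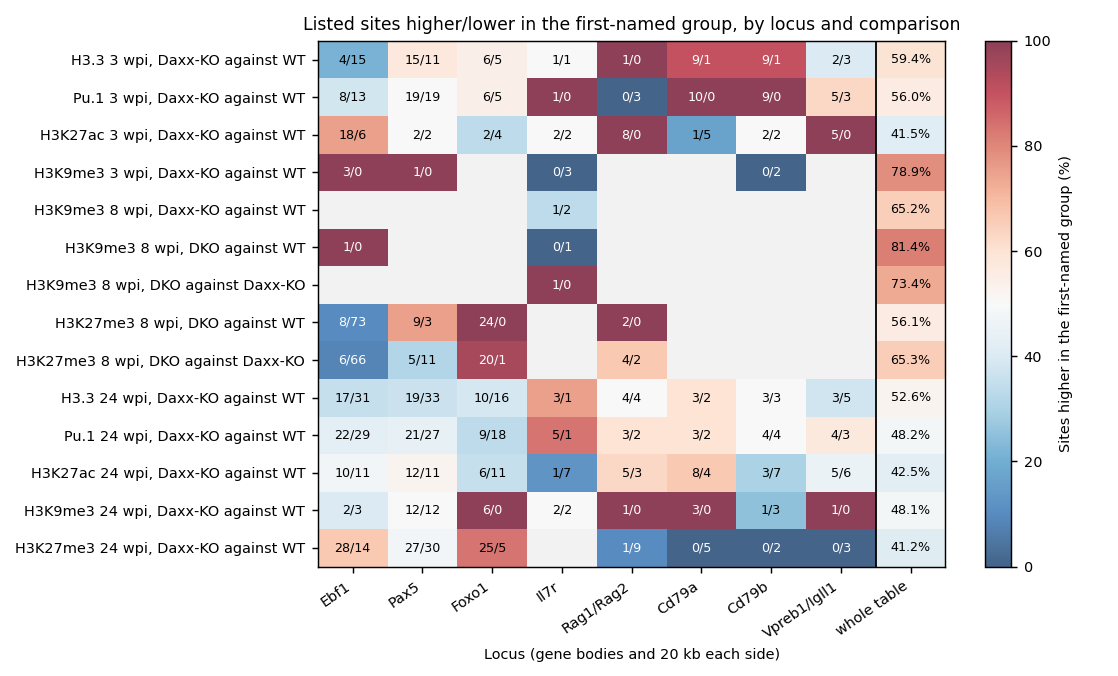
Number of listed sites higher/lower in the first-named group at each locus (columns, gene bodies and 20 kb each side) in the 14 comparisons (rows), with the percent higher as colour from 0 (blue) to 100 (red) and the percent of all listed sites in the last column. Grey cells hold no listed site. Ebf1 is blue for H3K27me3 at 8 w.p.i. (8/73 and 6/66) where Foxo1 is red (24/0 and 20/1).

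Ebf1 (chr11:44617317-45008091, 391 kb) encodes early B-cell factor 1. In DKO HSPCs at 8 w.p.i. H3K27me3 was lower than in WT at 73 of its 81 listed sites and higher at 8, where 56.1% of all listed sites were higher. The median log2 ratio was -2.21, and the libraries did not overlap at 80 of the 81, against 89.6% of all listed sites. The summed normalized counts of the 81 sites, which cover 106 kb, were 987, 1069 and 992 in DKO and 3400, 3899 and 2744 in WT. All 3 DKO libraries were below all 3 WT libraries, which follows from summing sites that were mostly listed as lower. Against Daxx-KO, 66 of 72 sites were lower in DKO and 6 higher, where 65.3% of all listed sites were higher. The median was -2.09, and the libraries did not overlap at 68 of the 72, against 84.3%. The sums were 771, 870 and 858 in DKO against 2822, 1973 and 2519 in Daxx-KO.

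The difference was not even along the gene, as the plot along Ebf1 shows. In the stretch of the gene from 150 to 400 kb past its first start site, chosen after its values were seen, all 57 sites listed in DKO against WT and all 44 listed in DKO against Daxx-KO were lower, and the libraries of the groups overlapped at none of them. The 57 sites cover 82.6 kb, their median log2 ratio was -2.5, and their sums were 542, 477 and 440 in DKO against 2439.5, 2891 and 2017 in WT. The 44 sites cover 48.1 kb, with a median of -2.45 and sums of 304, 309 and 270.4 in DKO against 1657, 1163 and 1472 in Daxx-KO. In the first 50 kb of the gene 2 of 5 sites were higher in DKO than in WT, whereas 1 of 7 was higher in DKO than in Daxx-KO, with sums of 131 to 150.1 in DKO and 262 to 287 in Daxx-KO. Beyond 400 kb, past the end of the gene, the 2 sites listed against WT and the 1 listed against Daxx-KO were higher in DKO.

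The strongest H3K27me3 site in WT and DKO, chr11:44827201-44836800 in an intron, covers 9600 bp. It had normalized counts of 154, 112 and 91.5 in DKO and of 453, 595 and 463 in WT, a log2 ratio of -2.08. The site with the highest mean in the other comparison, chr11:44763601-44765450, had 25.1, 45.2 and 42.2 in DKO and 174, 88.04 and 90.8 in Daxx-KO. An internal start site of Ebf1 at chr11:44909851-44912400 had 16.98, 6.99 and 15.2 in DKO against 50.7, 81.5 and 49.2 in WT. None of these 3 sites overlapped between the groups.

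**Figure D2:**
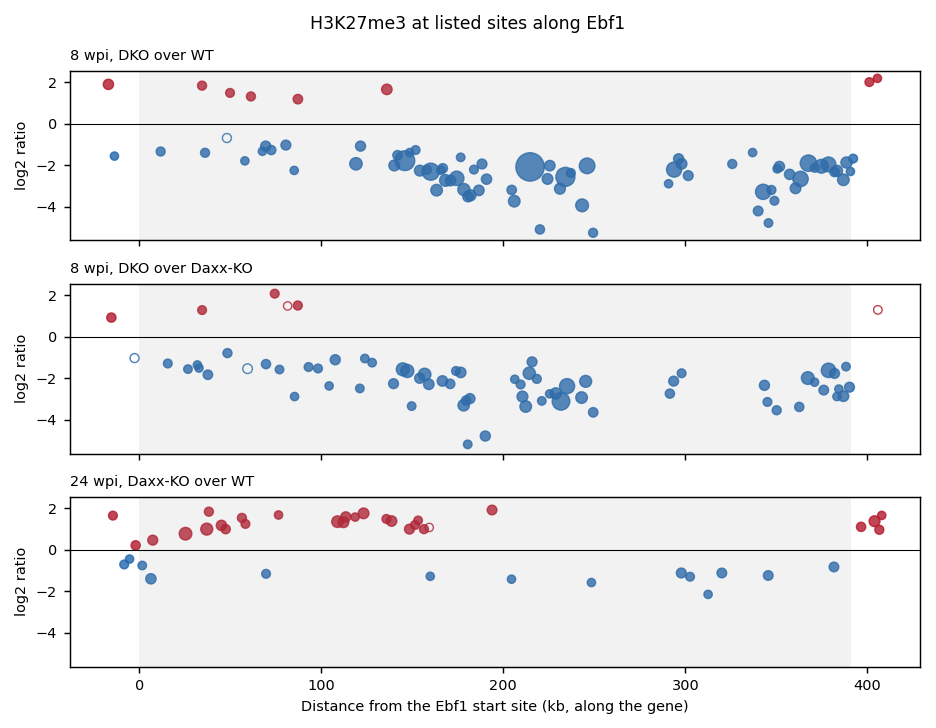
Log2 ratio of H3K27me3 at each listed site along Ebf1 (y axis) by distance from the start site in kb (x axis) in 3 comparisons. Red is higher and blue lower in the first-named group, and grey is the gene body. Open circles mark sites where libraries of the groups overlap, and larger circles mark longer sites. From 150 to 400 kb all 57 and all 44 sites at 8 w.p.i. lie below 0, while at 24 w.p.i. 6 of 15 lie above it.

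Daxx-KO HSPCs at 24 w.p.i. differed from WT in another way. H3K27me3 at Ebf1 was higher in Daxx-KO at 28 of 42 sites and lower at 14, where 41.2% of all listed sites were higher. All 8 sites between 100 and 150 kb were higher, with sums of 562 to 623 in Daxx-KO and 211 to 239 in WT. In the stretch from 150 to 400 kb 6 sites were higher and 9 lower, and the sums of 665 and 519 in Daxx-KO overlapped those of 729 and 618 in WT. A comparison of H3K27me3 between Daxx-KO and WT at 8 w.p.i. was not used here, because the control libraries of that table are labelled H3K9me3.

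H3K27ac at Ebf1 was higher in Daxx-KO at 18 of 24 sites at 3 w.p.i. and at 10 of 21 sites at 24 w.p.i., against 41.5% and 42.5% of all listed sites. The strongest site at 3 w.p.i., chr11:44879901-44881900, 264 kb into the gene, had 85.3 and 112 in Daxx-KO against 25.8 and 19.9 in WT. A site over the same intron at 24 w.p.i., chr11:44880951-44883000, had 129 and 108 against 24.6 and 11.1. Both Daxx-KO libraries were above both WT libraries at each time, with log2 ratios of 2.11 and 2.73. Many of the other sites at 3 w.p.i. rest on few reads, and at 6 of the 18 both WT libraries were at 0.

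H3.3 was lower in Daxx-KO at 15 of 19 Ebf1 sites at 3 w.p.i. and at 31 of 48 at 24 w.p.i., against 59.4% and 52.6% of all listed sites higher. The sums were 385 and 386 in Daxx-KO against 1003 and 1166 in WT at 3 w.p.i., and 1413 and 1494 against 2333 and 2385 at 24 w.p.i. The strongest site at 3 w.p.i., chr11:44723751-44724900, had 17.4 and 11.8 against 96.8 and 131. One site near a start, chr11:44621151-44621800, went the other way, with 53.7 and 49.4 against 30.1 and 5.24. It was higher again at 24 w.p.i. over chr11:44621251-44622050, with 48.6 and 104 against 1.84 and 7.52.

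Pu.1 was higher in Daxx-KO at 8 of 21 Ebf1 sites at 3 w.p.i. and at 22 of 51 at 24 w.p.i., against 56.0% and 48.2% of all listed sites. The intronic site with the word GAGGAAGT printed above, chr11:44668951-44669550, had 18.1 and 4.86 in Daxx-KO against 45.96 and 44.75 in WT at 3 w.p.i. An overlapping site at 24 w.p.i., chr11:44669051-44669750, had 29.99 and 42.84 against 2.88 and 2.11. The groups were separate at both times and in opposite directions.

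Pax5 (chr4:44524757-44710487, minus strand, 186 kb) encodes the factor that maintains B-cell identity. Its sites split more evenly than those of Ebf1. H3K27me3 was higher in DKO than in WT at 9 of 12 sites, against 56.1% of all listed sites. It was higher in DKO than in Daxx-KO at 5 of 16, against 65.3%, and higher in Daxx-KO than in WT at 27 of 57 at 24 w.p.i., against 41.2%. One site near a start was listed in both comparisons of DKO. At chr4:44704851-44706000 DKO had 174, 134.5 and 157 against 101, 91.5 and 90.5 in WT, and over its first 600 bp DKO had 90.4, 67.4 and 75.7 against 114, 109 and 109 in Daxx-KO. The DKO libraries were thus above WT and below Daxx-KO, with log2 ratios of 0.72 and -0.51, in comparisons with separate normalization and sites of unlike width. Daxx-KO and WT were not compared directly here, so no order of the genotypes follows.

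At the main start of Pax5, chr4:44710251-44711350, H3K27ac at 3 w.p.i. was 0 in both Daxx-KO libraries and 19.34 and 11.03 in WT. A Daxx-KO mean at the floor of 3 reads per library would make this a log2 ratio of -2.48, so that it was at least that much lower. Over the gene H3K27ac was higher in Daxx-KO at 2 of 4 sites at 3 w.p.i. and at 12 of 23 at 24 w.p.i. Of all listed H3K27ac sites 41.5% and 42.5% were higher. H3.3 was higher at 15 of 26 and then at 19 of 52 sites, against 59.4% and 52.6% of all listed sites. Pu.1 was higher at 19 of 38 and then at 21 of 48, against 56.0% and 48.2%. The Pu.1 site whose middle is printed above, chr4:44699351-44699950, had 6.30 and 2.43 in Daxx-KO against 47.01 and 57.53 in WT at 3 w.p.i., a log2 ratio of -3.58. H3K9me3 at an internal start, chr4:44644551-44645200, was 1.28 and 0 in Daxx-KO against 126 and 32.8 in WT at 24 w.p.i. At that time 12 of the 24 H3K9me3 sites of Pax5 were higher, against 48.1% of all listed sites.

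Foxo1 (chr3:52268336-52353221, 84.9 kb) encodes a forkhead factor that acts with Ebf1. H3K27me3 at this gene differed in the direction opposite to Ebf1. It was higher in DKO than in WT at all 24 listed sites, against 56.1% of all listed sites, with a median log2 ratio of 1.73. The libraries did not overlap at 17 of the 24, a smaller share than the 89.6% of all listed sites. The sums over 23.3 kb were 1024.5, 1009.6 and 1463 in DKO against 401.5, 388 and 457 in WT. It was higher in DKO than in Daxx-KO at 20 of 21 sites, against 65.3%, with a median of 1.45. The libraries did not overlap at 12 of the 21, against 84.3%, and the sums were 919, 882.5 and 1987.5 against 499, 506.5 and 535. DKO replicate 3 was the highest library in both comparisons. Leaving it out changed the direction of no Foxo1 site, although the sites had been selected with it.

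The H3K27me3 site with the highest mean in DKO and WT, chr3:52337201-52340400 in an intron, had 252, 189 and 419.5 in DKO against 149.6, 109.6 and 116 in WT. Within 1 kb of the start of Foxo1, chr3:52268801-52269450, DKO had 67.9, 34.9 and 30.5 against 12.2, 5.43 and 21.2 in WT. In Daxx-KO at 24 w.p.i. H3K27me3 was also higher than in WT, at 25 of 30 sites against 41.2% of all listed sites, with sums of 5918 and 6077 in Daxx-KO against 3329 and 3932 in WT over 31.1 kb. The highest of these sites, chr3:52328551-52329400, had 696 and 727 against 274 and 463. The groups were separate at each of these 3 sites.

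**Figure D3:**
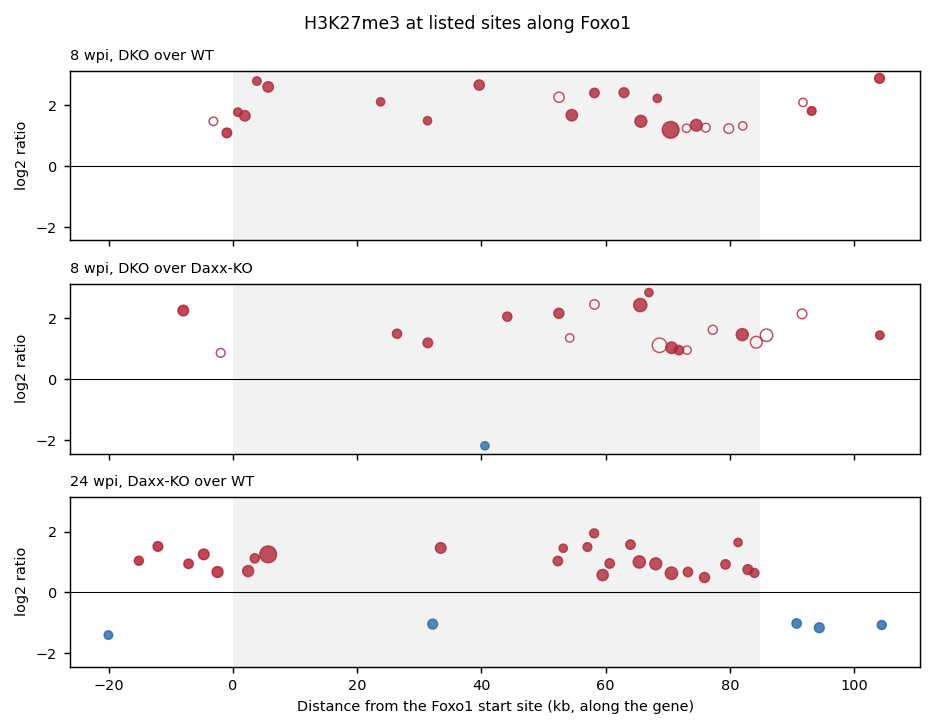
Log2 ratio of H3K27me3 at each listed site along Foxo1 (y axis) by distance from the start site in kb (x axis), with colours, circles and shading as for Ebf1. Sites lie above 0 at all 24 points of DKO over WT, at 20 of 21 of DKO over Daxx-KO and at 25 of 30 of Daxx-KO over WT at 24 w.p.i.

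An intronic part of Foxo1 about 60 kb from its start was listed for several marks. Pu.1 at chr3:52327951-52329800 was 357 and 349 in Daxx-KO against 79.9 and 125 in WT at 3 w.p.i., a log2 ratio of 1.79. The adjoining Pu.1 site, chr3:52327251-52327950, was lower, with 21.3 and 30.8 against 74.2 and 131 and a ratio of -1.98. H3.3 at chr3:52327901-52329950 was 147 and 704 against 80.6 and 173, and here the libraries of the groups overlapped. H3K27ac at chr3:52327201-52328200 was 36.8 and 39.1 against 11.8 and 19.9. At 24 w.p.i. H3K27ac was lower in Daxx-KO over part of the same stretch, chr3:52327801-52328450, with 56.2 and 61.5 against 152 and 95.7. Pu.1 at chr3:52328451-52329100 was higher again, with 64.1 and 86.7 against 34.5 and 32.6, and H3.3 was listed in sites of both directions. Over the whole locus at 3 w.p.i. H3.3 and Pu.1 were each higher at 6 of 11 sites and H3K27ac at 2 of 6. Of all listed sites 59.4%, 56.0% and 41.5% were higher. At 24 w.p.i. H3.3 was higher in Daxx-KO at 10 of 26 sites, Pu.1 at 9 of 27 and H3K27ac at 6 of 17. The shares of all listed sites were 52.6%, 48.2% and 42.5%. H3K9me3 was higher at all 6 of its sites, against 48.1% of all listed sites. The highest of the 6 had 31.9 and 62.5 against 15.5 and 5.62.

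Il7r (chr15:9505788-9530176, minus strand) encodes the interleukin-7 receptor alpha chain. H3K27ac at its start was lower in Daxx-KO at both times. At 3 w.p.i. chr15:9529201-9529900 had 1.94 and 2.55 in Daxx-KO against 17.2 and 14.3 in WT, a log2 ratio of -2.81. At 24 w.p.i. chr15:9528201-9530800, which contains the promoter printed above, had 86.9 and 67.3 against 289 and 326, a ratio of -2.0. The groups were separate at both times and in different mice. Over the locus H3K27ac was lower at 2 of 4 sites at 3 w.p.i. and at 7 of 8 at 24 w.p.i. Of all listed sites 41.5% and 42.5% were higher. The sums at the later time were 250.3 and 284 in Daxx-KO against 745 and 873 in WT. Pu.1 just upstream of the start, chr15:9531101-9532100, was 0.68 and 7.31 against 57.6 and 49.5 at 24 w.p.i. It was higher at the other 5 Pu.1 sites of the locus, against 48.2% of all listed sites.

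**Figure D4:**
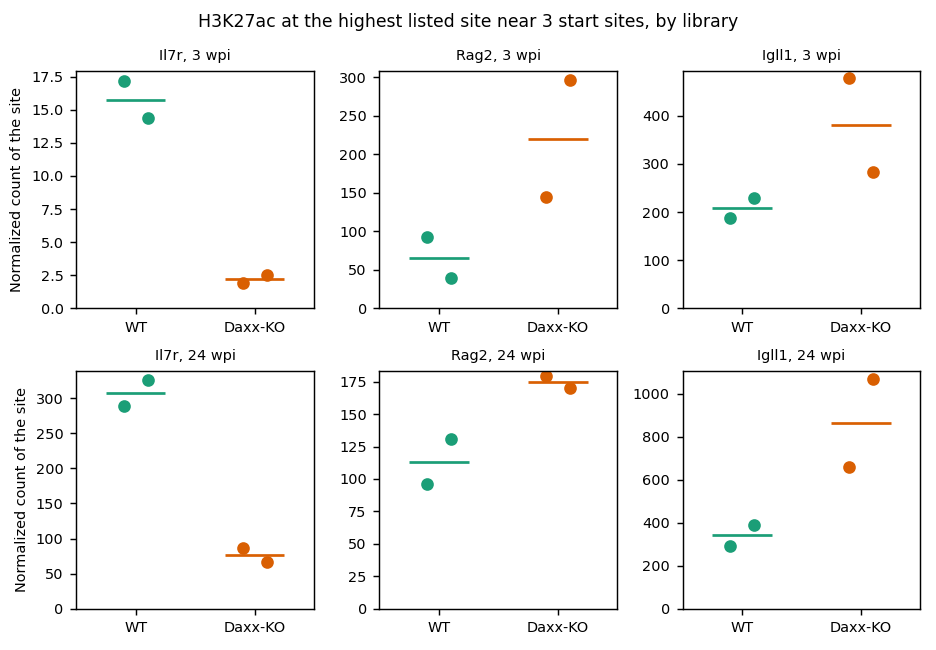
Normalized count of H3K27ac in each library (points) with the group mean (line) at the highest listed site at the start of Il7r, at the start of Rag2 and within 1 kb of the start of Igll1, at 3 and 24 w.p.i., on axes that start at 0. Daxx-KO libraries lie below both WT libraries at Il7r (1.94 and 2.55 against 17.2 and 14.3 at 3 w.p.i.) and above them at Rag2 and Igll1 at both times.

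H3K9me3 was lower in Daxx-KO and in DKO over a stretch about 2 to 7 kb downstream of Il7r, where 91.8 to 100% of the bases of the listed sites are masked as repeats in the genome. All 3 sites listed there at 3 w.p.i. were lower, among them chr15:9500001-9501250 with 51.2 and 36.7 in Daxx-KO against 105 and 121 in WT. At 8 w.p.i. chr15:9498801-9501950 had 66.9, 36.8 and 102 in Daxx-KO against 224, 191 and 196 in WT, and chr15:9498801-9501000 had 21.6, 6.91 and 23.0 in DKO against 92.1, 69.9 and 76.6 in WT. At 24 w.p.i. chr15:9499151-9501950 had 142 and 173 against 455 and 342. The log2 ratios of these 4 sites were -1.36, -1.57, -2.21 and -1.34, and the libraries of the groups were separate in each comparison, against 78.9%, 65.2%, 81.4% and 48.1% of all listed H3K9me3 sites higher. The DKO values rest on 10, 2 and 30 reads. One short site inside the stretch, chr15:9500601-9501200, was listed as higher in DKO than in Daxx-KO, with 2.04, 29.42 and 16.04 against 5.96, 2.99 and 6.15, and its libraries overlapped. Reads in repeats can map to more than 1 copy, and how such reads were treated is not given in the sources used here.

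**Figure D5:**
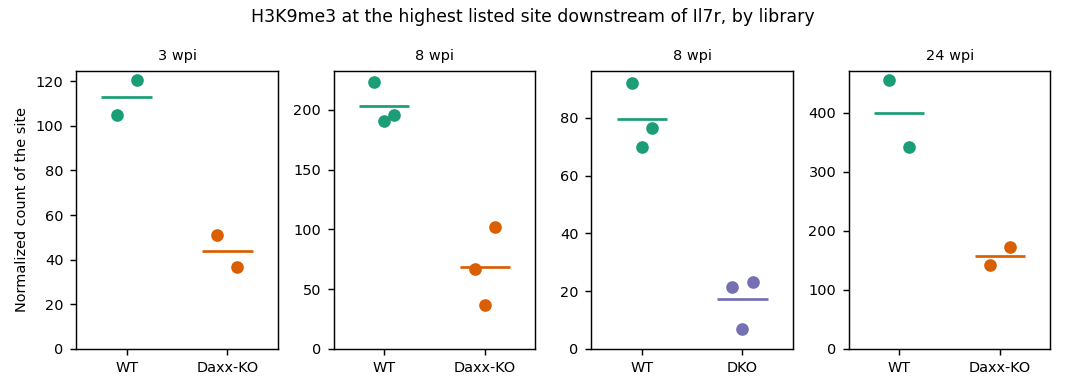
Normalized count of H3K9me3 in each library (points) with the group mean (line) at the highest listed site downstream of Il7r in 4 comparisons, each normalized on its own and drawn on its own axis from 0. The knock-out libraries lie below all WT libraries in each panel, for example 142 and 173 against 455 and 342 at 24 w.p.i.

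Rag1 (chr2:101638282-101649501, minus strand) and Rag2 (chr2:101624718-101632529, plus strand) lie end to end. At 3 w.p.i. H3K27ac was higher in Daxx-KO at all 8 listed sites of the locus, against 41.5% of all listed sites, and all 8 lie within 20 kb of Rag2. The site at the Rag2 start, chr2:101624101-101625450, which contains the promoter printed above, had 144 and 296 in Daxx-KO against 92.4 and 39.7 in WT. The sums of the 8 sites were 364 and 790.1 in Daxx-KO against 208.5 and 118 in WT. Daxx-KO replicate 2 was the higher library at every one of these sites, and without it 7 of the 8 remained higher.

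At 24 w.p.i. 5 of 8 H3K27ac sites were higher, against 42.5% of all listed sites. The Rag2 start was listed in adjoining sites, with 179 and 170 (Daxx-KO) against 96.1 and 131 (WT) at chr2:101624301-101625300, and 60.7 and 139 against 8.94 and 25.3 at chr2:101625351-101626150. The first difference is small, with a log2 ratio of 0.62. H3K27me3 at 24 w.p.i. was lower in Daxx-KO at 9 of 10 sites, where 41.2% of all listed sites were higher. Its sums were 278 and 387 in Daxx-KO against 648 and 537 in WT. Within 1 kb of the Rag1 start, chr2:101648351-101648950, it was 14.4 and 20.2 against 42.01 and 44.26. In DKO at 8 w.p.i. the site with the highest mean, chr2:101655651-101657750 upstream of Rag1, had 97.9, 147 and 110.4 against 44.5, 44.6 and 44.8 in Daxx-KO. Pu.1 was lower in Daxx-KO at all 3 listed sites at 3 w.p.i. and higher at 3 of 5 at 24 w.p.i. Of all listed Pu.1 sites 56.0% and 48.2% were higher. H3.3 within 1 kb of the Rag1 start, chr2:101647601-101648700, was 2.21 and 16.98 against 92.2 and 80.8 at 24 w.p.i.

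Cd79a (chr7:24897381-24902197) and Cd79b (chr11:106311341-106314762, minus strand) encode the paired signalling chains of the B-cell receptor. At 3 w.p.i. H3.3 was higher in Daxx-KO at 9 of 10 sites of each gene and Pu.1 at all 10 sites of Cd79a and all 9 of Cd79b, against 59.4% and 56.0% of all listed sites. The H3.3 sums were 760 and 872.5 in Daxx-KO against 367 and 207 in WT at Cd79a, and 638 and 569 against 285 and 154.5 at Cd79b. For Pu.1 they were 1247 and 1192 against 520.2 and 284.5 at Cd79a, and 625 and 732 against 393 and 118 at Cd79b. Both Daxx-KO libraries were above both WT libraries in all 4 sums, which follows from summing sites that were nearly all listed as higher. Within 1 kb upstream of the Cd79a start, chr7:24895751-24896900, Pu.1 was 87.4 and 77.0 against 39.2 and 25.6.

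Depth and base composition moved with these values. The lower of the WT sums was in each case that of the shallow WT replicate 2. Leaving it out changed none of these counts, although the sites had been selected with it. The median GC content of the sites was 53.9% (Cd79a) and 52.4% (Cd79b) for H3.3, and for Pu.1 52.9% and 54.8%, above the 49.0% of all listed sites of either table. Among all listed sites within the GC range of the sites of each gene, 61.5% and 72.2% were higher for H3.3, and for Pu.1 66.2% and 69.5%. The part of GC content in the result was not tested. Marker genes of other cells were set beside them, where all listed sites had shares of 59.4% for H3.3 and 56.0% for Pu.1. H3.3 was higher at 51 of 61 sites of 10 neutrophil genes (83.6%), 38 of 45 of 6 erythroid genes (84.4%), 35 of 52 of 9 T-cell genes (67.3%) and 21 of 36 of the 6 HSPC genes (58.3%), and Pu.1 at 45 of 73 (61.6%), 32 of 38 (84.2%), 48 of 81 (59.3%) and 24 of 39 (61.5%). Shares far above those of all listed sites were thus also seen at the erythroid genes for both antibodies and at the neutrophil genes for H3.3. The other lists were closer to all listed sites, and no list reached the shares of Cd79a and Cd79b. The windows also hold other coding genes, Dmrtc2, Rps19 and Arhgef1 beside Cd79a and Gh and Scn4a beside Cd79b.

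By 24 w.p.i. this difference was not seen in the counts. H3.3 was higher at 3 of 5 sites of Cd79a and 3 of 6 of Cd79b, and Pu.1 at 3 of 5 and 4 of 8, against 52.6% and 48.2% of all listed sites. H3K27ac within 1 kb of the Cd79b start was lower in Daxx-KO at both times. It was 3.88 and 5.95 against 20.4 and 24.3 at chr11:106314651-106315350 at 3 w.p.i. At 24 w.p.i. it was 90.7 and 105 against 146 and 180 at chr11:106313901-106314600. At the Cd79a start at 24 w.p.i. overlapping sites were listed in opposite directions. The upstream one, chr7:24896451-24897150, had 41.96 and 49.77 in Daxx-KO against 17.9 and 1.58 in WT, and the one over the start, chr7:24896751-24898500, had 82.4 and 35.1 against 189 and 164. H3K27me3 at 24 w.p.i. was lower at all 5 sites of Cd79a and both sites of Cd79b, where 41.2% of all listed sites were higher. Among them was a site within 1 kb of the Cd79b start, chr11:106312901-106314050, with 17.6 and 27.6 against 58.8 and 87.1.

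H3K9me3 was lower in Daxx-KO in a stretch downstream of Cd79b as well. At 3 w.p.i. chr11:106295201-106297050 had 20.9 and 33.3 against 92.8 and 85.8, and at 24 w.p.i. chr11:106295151-106295800 had 65.7 and 58.4 against 118 and 105. Of the bases of these sites 99.8% and 100% are masked as repeats.

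Vpreb1 (chr16:16868403-16870843) and Igll1 (chr16:16860671-16863985) lie beside each other on the minus strand. At 3 w.p.i. H3K27ac was higher in Daxx-KO at all 5 listed sites of the locus, against 41.5% of all listed sites. The strongest begins within 1 kb upstream of the Igll1 start, chr16:16864801-16866050, and had 479 and 284 in Daxx-KO against 188 and 229 in WT. A site over the same sequence at 24 w.p.i., chr16:16864951-16866300, had 661 and 1068 against 293 and 391. Both Daxx-KO libraries were above both WT libraries at each time, with log2 ratios of 0.87 and 1.34. Pu.1 was also higher in this stretch. The site at chr16:16865951-16866700 printed above in part had 59.1 and 66.5 against 38.6 and 19.2 at 3 w.p.i., and chr16:16864951-16866100 had 176 and 83.6 against 60.5 and 23.2 at 24 w.p.i.

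Over the whole locus at 24 w.p.i. 5 of 11 H3K27ac sites were higher, against 42.5% of all listed sites. Of those within 20 kb of Igll1 5 of 7 were higher, and the 4 that lie only in the window of Vpreb1 were lower. H3K27me3 was lower at all 3 listed sites at 24 w.p.i., where 41.2% of all listed sites were higher. Its sums were 13.6 and 24.8 in Daxx-KO against 168 and 128.5 in WT. At the Igll1 start, chr16:16863451-16864300, it was 3.19 and 5.52 against 72.8 and 34.3, a log2 ratio of -3.62. H3.3 in the stretch upstream of Igll1, chr16:16865101-16866100, was 2.21 and 2.26 against 81.2 and 102 at 24 w.p.i. The window also holds Top3b.

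The H3K27me3 differences at 24 w.p.i. thus split by gene. The 4 loci of the recombinase and of the pre-B-cell receptor had 1 site higher and 19 lower in Daxx-KO. The 3 transcription factor genes had 80 higher and 49 lower, against 41.2% of all listed sites higher. They differed among themselves, with 28 of 42 higher at Ebf1, 25 of 30 at Foxo1 and 27 of 57 at Pax5. Il7r had no listed H3K27me3 site. The grouping of the loci was made after the values were seen. Marker genes of other cells differed in direction too. H3K27me3 was higher at 11 of 51 neutrophil, 17 of 44 HSPC, 49 of 98 T-cell and 28 of 49 erythroid sites.

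Different mice were used at 3 and 24 w.p.i., so the times can be compared site by site. Of the H3.3 sites at these genes, 29 of the 84 at 3 w.p.i. (34.5%) overlapped a site at 24 w.p.i., and 31 of the 157 at 24 w.p.i. (19.7%) the reverse. For Pu.1 these were 36 (35.6%) and 35 (22.3%), for H3K27ac 20 (32.8%) and 19 (17.3%), and for H3K9me3 4 (44.4%) and 3 (6.25%). Over all listed sites outside the X and Y chromosomes the shares were 30.1% and 17.2% for H3.3, 32.6% and 20.8% for Pu.1, 37.4% and 20.5% for H3K27ac, and 22.8% and 9.16% for H3K9me3. The shares at these genes were thus within a few percentage points of the whole tables, except for the 9 H3K9me3 sites at 3 w.p.i. Of the overlapping pairs, 12 H3.3 pairs were higher at both times, 10 lower at both and 10 opposite. For Pu.1 the numbers were 8, 10 and 18, and for H3K27ac 9, 5 and 7. All 5 H3K9me3 pairs were lower at both times, and they lie in the repeat stretches near Il7r and Cd79b. Opposite pairs were 31.2% for H3.3, 50% for Pu.1 and 33.3% for H3K27ac, against 48.8%, 51.9% and 40.2% over the whole tables, and none of the 5 for H3K9me3 against 43.2%.

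Among 23 other genes of B-cell regulation and signalling (Flt3, Jak1, Jak3, Stat5a, Stat5b, Tcf3, Tcf12, Ikzf1, Ikzf3, Bcl11a, Lef1, Irf4, Irf8, Pou2af1, Spib, Bach2, Sox4, Ms4a1, Cd22, Cd72, Blnk, Syk and Dntt), H3K27ac was higher in Daxx-KO at 117 of 257 sites (45.5%) at 3 w.p.i. and at 215 of 562 (38.3%) at 24 w.p.i., near the 41.5% and 42.5% of all listed sites. At 3 w.p.i. 69.9% of their H3.3 sites and 71.2% of their Pu.1 sites were higher, against 59.4% and 56.0%. H3K27me3 was higher in DKO than in WT at 85 of 112 sites (75.9% against 56.1%) and higher in DKO than in Daxx-KO at 76 of 93 (81.7% against 65.3%). In Daxx-KO at 24 w.p.i. it was higher at 113 of 257 (44%), near the 41.2% of all listed sites.

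Marker genes of other cells differed as well, beside shares of 41.5% and 42.5% of all listed H3K27ac sites. H3K27ac at 10 neutrophil genes (Elane, Mpo, Prtn3, Ctsg, Cebpe, S100a8, S100a9, Ltf, Camp and Ngp) was higher in Daxx-KO at 39 of 58 sites at 3 w.p.i. and 106 of 135 at 24 w.p.i., with sums of 3056 to 3249 against 1664.5 to 1689 and of 78977 to 80546 against 40803 to 45447. At 9 T-cell genes (Cd3e, Cd3g, Cd4, Cd8a, Bcl11b, Tcf7, Gata3, Lck and Thy1) it was higher at 6 of 40 and 29 of 102 sites, with sums of 224 to 263 against 674 to 774 and of 9959 to 10231 against 11150 to 11243. At 6 erythroid genes (Klf1, Epor, Hbb-bt, Hba-a1, Slc4a1 and Tfrc) it was higher at 7 of 25 and 13 of 47 sites, with sums of 402.7 to 476 against 692 to 842 and of 3786.5 to 4811 against 5952 to 5954. Every gene of the 3 lists held listed H3K27ac sites at both times. At the 6 HSPC genes H3K27ac was higher in Daxx-KO at 61 of 81 sites (75.3%) at 3 w.p.i. and at 64 of 109 (58.7%) at 24 w.p.i. For H3K27me3 at 8 w.p.i. the neutrophil, T-cell and erythroid lists were higher in DKO than in WT at 7 of 9, 30 of 41 and 13 of 13 sites. The HSPC list was higher at 14 of 15, against 56.1% of all listed sites. In DKO against Daxx-KO the 4 lists, in the same order, were higher at 9 of 11, 33 of 44, 11 of 25 and 9 of 14 sites, against 65.3%. The erythroid list thus fell below the share of all listed sites in this comparison, and the HSPC list was near it. The part of cell composition in the differences at the B-lineage genes was not tested.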

How the data were processed

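CUT&Tag libraries of H3.3, Pu.1, H3K27ac, H3K9me3 and H3K27me3 were compared by the authors with diffReps 1.55.6 (mm10, negative binomial test, 600-bp windows moved by 50 bp, window p-value below 0.0001). Each deposited table lists the sites that passed, with 1 normalized count per library, the group means, and columns of the authors' log2 fold change, p-value and adjusted p-value. The submitters' processing notes also name CASAVA 1.8.4, cutadapt 1.13, STAR 2.5.3 and bedtools. The fold changes and p-values were neither printed nor compared, and the adjusted p-value served only as a filter in 1 alternative. The deposited normalized counts are reads divided by a constant for each library, and all values gave whole reads (within 0.1) when multiplied back.

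Sites overlapping the gene bodies plus 20 kb (GENCODE M21) were taken with Python 3.11.15, pandas 2.3.3, numpy 2.4.6 and scipy 1.17.1, and plots were made with matplotlib 3.10.9. Samples were grouped by the genotype, antibody and time of their labels. Because the tables hold preselected sites, no count model was fitted and no test was run. The counting was tested on simulated data. The main value was the percent of sites higher in the knock-out with its Wilson 95% interval. A group at 0 was set to a floor of 3 reads per library for a bound.

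Named sites were those with the highest mean at each locus and those within 1 kb of a start site, together with a few chosen after their values were seen. The genes and the lists (23 other B-cell genes and HSPC, neutrophil, T-cell and erythroid markers) were chosen with earlier results of these data known, and some genes of these lists are not reported here. Labels do not say that replicates were processed independently. One table (8 w.p.i., H3K27me3, Daxx-KO with WT) was left out because its control libraries are labelled H3K9me3, and 8 DKO libraries at 24 w.p.i. are in no table used. The 24 w.p.i. tables hold no sites on the X and Y chromosomes. Alternatives are given in the closing section.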

Additional observations from a re-analysis of the deposited data

Results flagged for a closer look

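Of 94 pairs of overlapping sites at 3 and 24 w.p.i., 88 had separate Daxx-KO and WT libraries at both times, and 34 of the 88 were in opposite directions. Whether separate or not, 35 of the 94 pairs were opposite. Over the whole tables opposite pairs made up 40.2% (H3K27ac) to 51.9% (Pu.1), so reversals were not particular to these genes. In 5 of the 34 pairs, both sites were within 1 kb of a start site or had the highest mean of their locus, and these are given here. The difference between the times was not tested, and mice and normalization differed between the times.

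H3.3 at the start of Foxo1 had a log2 ratio of 2.49 at 3 w.p.i., with normalized counts of 30.01 and 33.16 in Daxx-KO against 11.2 and 0 in WT. At 24 w.p.i. the ratio was -6.41, with 2.21 and 0 against 73.8 and 114. H3.3 at the start of Igll1 had a ratio of -1.18, with 17.4 and 22.1 against 47.7 and 41.9, and then of 4.59, with 52.99 and 37.35 against 0 and 3.76.

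Pu.1 at a site near a start of Ebf1, chr11:44618801-44619450, had a ratio of -2.07, with 14.2 and 27.6 in Daxx-KO against 47.01 and 127.85 in WT. At the later time the overlapping site had a ratio of 2.34, with 54.5 and 117 against 31.7 and 2.11. A separate Pu.1 site over the first start of the gene, chr11:44616801-44617500, was higher in Daxx-KO at the earlier time. It had 39.38 and 72.15 against 28.73 and 31.96, a ratio of 0.88, and the groups were separate. H3K27ac at the start of Foxo1 had a ratio of -3.87, with 3.88 and 0 against 17.2 and 39.7, and then of 1.3, with 100.4 and 74.7 against 36.9 and 34.0. H3K27ac upstream of Cd79a had a ratio of -1.0, with 37.8 and 27.2 against 59.1 and 70.6, and then of 0.93, with 1464 and 1673 against 932 and 712.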

How the results depend on the processing

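Of 153 recomputed values, 146 stayed within the interval of the share or, for counts of shared sites, within 1.5 times the count. Requiring an overlap of 50% of the shorter site left 23 shared H3.3, 24 Pu.1, 17 H3K27ac and 4 H3K9me3 sites of 3 w.p.i. Taking the median share over the genes instead of the share of all sites removed the weight of the long genes. It gave 87.5% for H3K27me3 in DKO against WT, on the other side of an even split from the share of all sites, because Ebf1 holds 81 of the 119 sites. It gave 50.0% in DKO against Daxx-KO, and at 24 w.p.i. 53.6% for Pu.1, 100% for H3K9me3 and 0% for H3K27me3. For H3K9me3 in Daxx-KO at 8 w.p.i. the share was 0% both with non-overlapping sites only and within 5 kb of the gene bodies, which left 2 sites and 1 site. Non-overlapping sites only left no site for H3K9me3 in DKO against Daxx-KO. Filters on the adjusted p-value or on a log2 ratio of at least 1, and joining sites within 1 kb, changed none of the shares beyond their intervals.

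Leaving out each library in turn changed no share beyond its interval (66 values). The sites were not selected anew without that library, and most had separate libraries, so their direction could hardly change. Counts per locus without each library, added after seeing the data, changed by 1 site in 14 of 79. No paired analysis was possible because the shares come from no test and replicate numbers name different mice in each group. Sites with few reads, most of all H3K27ac at 3 w.p.i. and H3K9me3 in DKO, are the least certain.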
